A study of Homo sapiens with 12 samples.

Results

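Cancer tissue grown beside another tissue, whichever that tissue was, was compared with cancer tissue grown alone. The cells were MDA-MB-231, a human breast cancer line of triple-negative type with mesenchymal features, carrying a green fluorescent protein and embedded in fibrin gel in a perfused culture plate (AngioPlate). In the cardiac co-culture the neighbour was heart-like tissue (cardiomyocytes made from induced pluripotent stem cells, plus 2% cardiac fibroblasts), in the hepatic co-culture it was HepG2 cells, a human liver tumour line, with 2% lung fibroblasts, and in monoculture there was none. RNA of the cancer tissue in the middle well was taken 5 days after seeding, and each of the 3 conditions had 4 libraries, so 8 of the 12 libraries came from a co-culture. The labels name the libraries of a condition biological replicates and do not say whether these were separate cultures. Each p-value thus reflects library-to-library spread, which may in part be technical.

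The pooled effect was the mean of the cardiac and hepatic co-cultures with equal weight, minus monoculture, on the log2 scale. Rises and falls of named genes are this log2 value with its standard error (SE), tested with edgeR and adjusted over all tested genes. A gene counted as shared when its level in all 8 co-culture libraries lay above, or in all 8 lay below, every monoculture library. Levels are counts per 1e6 after TMM scaling (CPM), which are not divided by gene length and so are not compared between genes. Of 17468 genes tested among 58735 in the table, 1528 (8.75%) were shared, 791 of them higher (4.53%) and 737 lower (4.22%) in co-culture. Closest to the limit, RNF10 was just inside with a lowest co-culture level of 233 CPM and a highest monoculture level of 233 CPM, and RNPEPL1 was just outside with 60.9 CPM for both. On the lower side ATP1B3 was just inside with a highest co-culture level of 108 CPM and a lowest monoculture level of 108 CPM, and IARS2 was just outside with 226 CPM for both.

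Tumour cells in a gel take up glucose and oxygen through diffusion and flow, and they build and cut the matrix around them. Glycolysis, the hypoxia programme driven by HIF transcription factors, laminin and fibronectin deposition, chaperone levels and cell cycle entry are therefore commonly followed when such cells are placed next to other tissue. TXNIP and its relative ARRDC4 encode arrestin-like proteins that limit glucose uptake and whose transcription follows intracellular glucose through the MondoA and ChREBP factors.

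Total counts were 27.0 to 37.4 M in the cardiac co-culture, 26.2 to 42.4 M beside hepatic tissue and 35.0 to 42.0 M in monoculture (M for 1e6). Cardiac replicate 4 stood apart from the other co-culture libraries. On principal component 1, which held 28.5% of the variance, it lay at 24.9, beside monoculture replicate 2 at 22.3, while cardiac replicates 1 to 3 lay between -16.3 and -6.79, the hepatic libraries between -46.8 and -24.5 and the monoculture libraries between 22.3 and 51.1. Without cardiac replicate 4 the shared set grew to 3099 genes, and 1506 of the 1528 were among them. Without monoculture replicate 2 it held 2474. Because the rule asks for every library, it removes genes on which these libraries approach the other groups.

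In the pooled comparison 4290 genes (24.6%) passed an adjusted p of 0.05, 2232 (12.8%) higher and 2058 (11.8%) lower in co-culture, so 52.0% of the calls were higher. This split depended on the scaling, with 61.8% higher under upper-quartile scaling and 39.3% under library totals alone, and the median log2 fold change over all tested genes was 0.01, 0.04 and -0.04 in that order. Without cardiac replicate 4 there were 5537 calls, and without monoculture replicate 3 there were 2612. Against the same monoculture libraries the cardiac co-culture alone had 1443 calls (8.26%), 862 higher (4.93%) and 581 lower (3.33%). The hepatic co-culture alone had 4892 (28.0%), 2518 higher (14.4%) and 2374 lower (13.6%). Under library totals 48.6% of the cardiac and 40.1% of the hepatic calls were higher, against 59.7% and 51.5% with TMM scaling. The cardiac count was 3378 without cardiac replicate 4 and between 263 and 2017 without any other library. Only 470 of the pooled calls reached a 2-fold change.

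Of the shared genes, 1419 also passed the pooled test, which is a description only, since the rule used the same values. In the separate comparisons 786 shared genes passed in both co-cultures, 567 passed in the hepatic comparison alone, 38 in the cardiac comparison alone and 137 in neither. The shared effects were mostly small. The median pooled log2 fold change was 0.54 over the shared higher genes and -0.31 over the shared lower genes. A change of at least 2-fold in both co-cultures was seen for 100 higher and 14 lower genes. The hepatic effect was the larger one for 1150 of the 1528 shared genes, against 11179 of the 17468 tested.

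**Figure D1:**
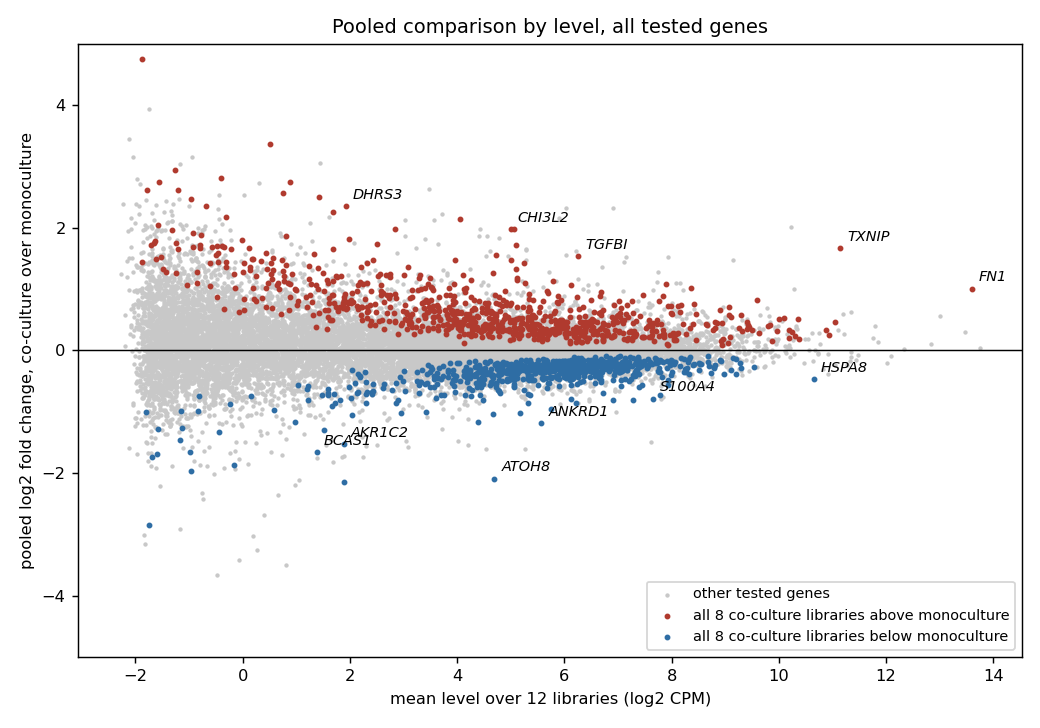
Pooled log2 fold change, co-culture over monoculture (y), against the mean level over 12 libraries in log2 CPM (x) for the 17468 tested genes, with the 791 shared higher genes in red and the 737 shared lower genes in blue. The red points reach farther from 0 than the blue ones, and TXNIP and FN1 lie among the genes of highest CPM.

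The genes of highest CPM, not divided by length, among the shared higher ones were the glucose-responsive TXNIP (TXNIP, ENSG00000265972, chr1:145992435-145996600 on the minus strand, GRCh38) and fibronectin, FN1. TXNIP had 2662, 2581, 2095 and 1173 CPM beside cardiac tissue, 3983, 3691, 4225 and 3230.3 CPM beside hepatic tissue and 933, 1167, 624 and 847 CPM in monoculture. All 4 hepatic libraries lay above every other library, and cardiac replicate 4 was the lowest of the co-culture, level with the highest monoculture library but above it. The pooled log2 fold change was 1.67 ± 0.24 (SE; adjusted p = 0.00137), with 1.25 in the cardiac and 2.08 in the hepatic comparison. ARRDC4, the relative of TXNIP, was looked up for that reason after its values were seen, and had 29.6, 32.9, 27.6 and 17.3 CPM beside cardiac tissue, 40.8, 36.0, 51.0 and 35.4 CPM beside hepatic tissue and 10.9, 16.5, 8.22 and 9.44 CPM in monoculture. Its groups did not overlap either, and its pooled log2 fold change was 1.55 ± 0.22 (SE; adjusted p = 0.00088).

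The promoters of TXNIP and ARRDC4 are shown because a carbohydrate response element, a pair of E-box-like motifs, is known for TXNIP. They are taken from RefSeq (GRCh38.p14), run from 250 bases before to 50 bases after the first listed transcription start, and are written 5′ to 3′ on the gene's strand. Capitals in TXNIP mark the pair CACGNG, 5 bases and CACGNG again, and in ARRDC4 the E-box CACGTG, each searched on both strands. The E-box is also 1 of the forms of CACGNG.
TXNIP, chr1:145996530-145996829, minus strand: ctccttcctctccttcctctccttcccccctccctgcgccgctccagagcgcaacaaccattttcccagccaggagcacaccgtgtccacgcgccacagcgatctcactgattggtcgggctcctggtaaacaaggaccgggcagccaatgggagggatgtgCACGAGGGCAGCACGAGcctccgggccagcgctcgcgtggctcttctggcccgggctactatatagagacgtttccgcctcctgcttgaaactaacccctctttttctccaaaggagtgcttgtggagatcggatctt
ARRDC4, chr15:97960453-97960752, plus strand: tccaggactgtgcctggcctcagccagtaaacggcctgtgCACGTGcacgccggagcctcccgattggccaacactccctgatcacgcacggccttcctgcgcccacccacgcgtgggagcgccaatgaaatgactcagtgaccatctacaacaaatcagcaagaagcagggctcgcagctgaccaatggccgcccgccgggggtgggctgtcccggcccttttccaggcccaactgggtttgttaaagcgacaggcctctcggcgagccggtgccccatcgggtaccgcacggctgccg
The spaced pair was in 0.0732% of 27305 promoters of the table, in 0.149% of those of tested genes and in 2 of 563 shared higher promoters, and the single E-box CACGTG was in 7.43% of the table. The E-box was in 49 of 563 shared higher promoters (8.70%) and in 77 of 594 shared lower promoters (13.0%), against 9.78% of the 11380 tested genes with a promoter. A match describes the letters of the window and is not evidence of binding.

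FN1, the glycoprotein that assembles into pericellular fibrils (FN1, ENSG00000115414, chr2:215360440-215436172 on the minus strand), had 14564, 16442, 13944 and 9478 CPM beside cardiac tissue, 21852, 11896, 18264 and 12791 CPM beside hepatic tissue and 8380.3, 8242, 5450.4 and 7432 CPM in monoculture. Every co-culture library was above every monoculture library, and cardiac replicate 4 was again the lowest. Its pooled log2 fold change was 1.01 ± 0.21 (SE; adjusted p = 0.00553). PSAP, the precursor of lysosomal saposins, had 2315, 2389.9, 2045 and 1916 CPM beside cardiac tissue, 2899, 2232, 2584 and 2222 CPM beside hepatic tissue and 1596, 1687, 1667 and 1775 CPM in monoculture. Its pooled log2 fold change was smaller, 0.46 ± 0.08 (SE; adjusted p = 0.000778). RPLP0, a stalk protein of the large ribosomal subunit, had 2255, 2049, 1986 and 1855 CPM beside cardiac tissue, 2382, 2054, 1997 and 1874 CPM beside hepatic tissue and 1732, 1719, 1683 and 1775 CPM in monoculture. These libraries came close to each other, and its log2 fold change of 0.25 ± 0.07 (SE; adjusted p = 0.0147) fell short of the threshold without monoculture replicate 3, where it was 0.24. PSAP kept its call without each library in turn.

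**Figure D2:**
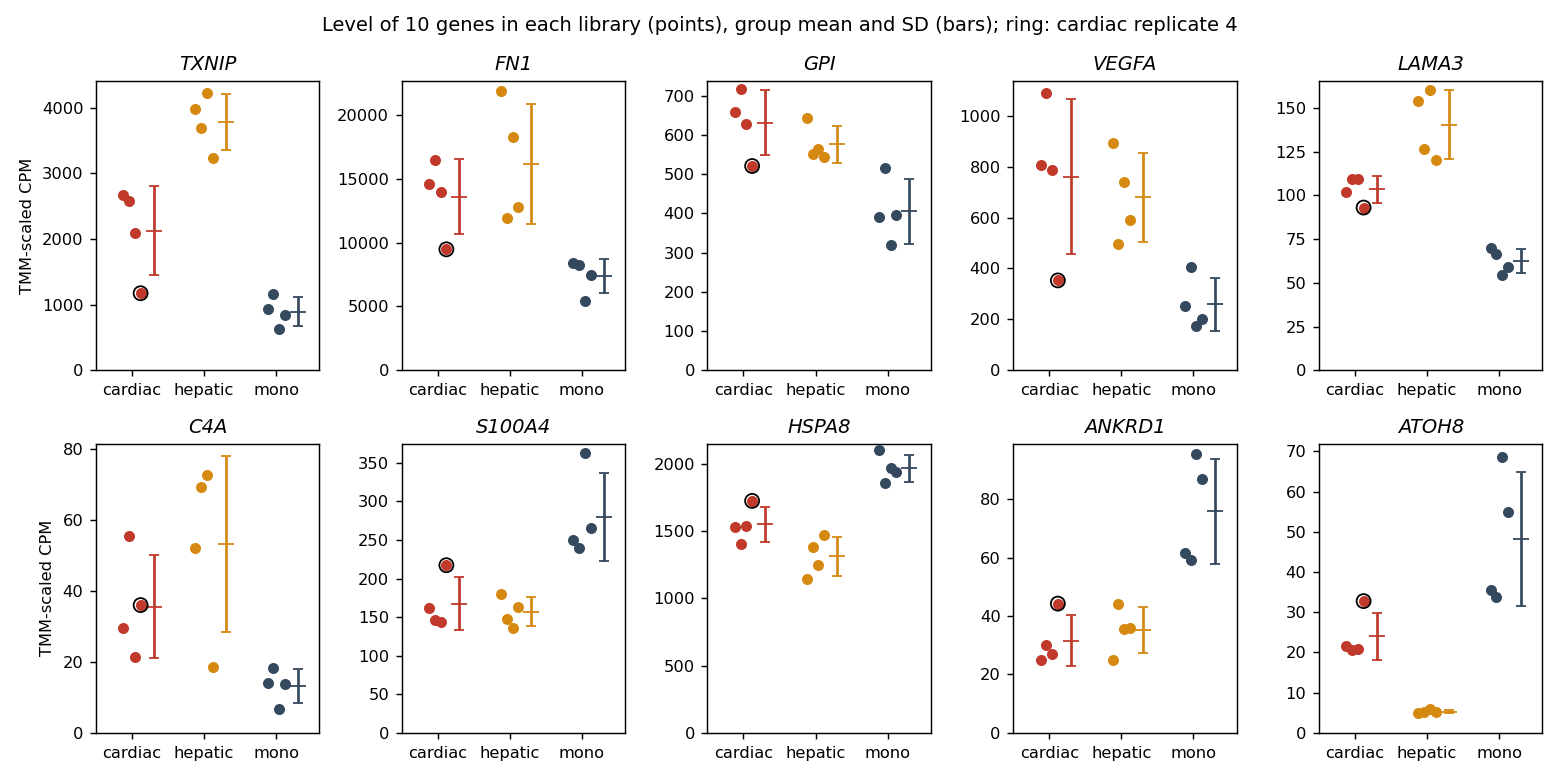
TMM-scaled CPM (y, from 0) of 10 genes in each library, for the cardiac co-culture, the hepatic co-culture and monoculture from left to right, with the mean and SD over 4 libraries as bars and a ring on cardiac replicate 4. TXNIP, FN1, GPI, LAMA3 and C4A lie higher and S100A4, HSPA8, ANKRD1 and ATOH8 lie lower in all 8 co-culture libraries, and VEGFA overlaps through the ringed library alone.

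The largest shared rises among protein-coding genes, with a mean logCPM above 1, ranked by the smaller of the 2 single effects, were of DHRS3, FGG, CHI3L2, PAEP, SSPO, C4A, TMEM91 and PRSS53. DHRS3, a reductase that turns retinaldehyde back into retinol, had 5.86, 5.52, 4.24 and 2.37 CPM beside cardiac tissue, 6.14, 4.68, 6.47 and 6.12 CPM beside hepatic tissue and 0.803, 1.12, 0.854 and 1.22 CPM in monoculture. Its pooled log2 fold change was 2.35 ± 0.24 (SE; adjusted p = 1.32e-05), and it kept its call with a minimum change of 1.5-fold and without each library. CHI3L2, a secreted chitinase-like protein, had 60.5, 48.3, 49.2 and 19.5 CPM beside cardiac tissue, 54.0, 22.4, 46.0 and 39.8 CPM beside hepatic tissue and 13.6, 16.0, 3.88 and 9.63 CPM in monoculture. Its log2 fold change was 1.98 ± 0.45 (SE; adjusted p = 0.0124), with cardiac replicate 4 and hepatic replicate 2 nearest to monoculture. C4A, the complement component that opsonises surfaces, had 29.6, 55.4, 21.4 and 36.0 CPM beside cardiac tissue, 52.1, 69.4, 72.7 and 18.7 CPM beside hepatic tissue and 14.0, 18.3, 6.83 and 13.7 CPM in monoculture. Its spread was wide and its log2 fold change was 1.72 ± 0.44 (SE; adjusted p = 0.0192). Without monoculture replicate 1, 3 or 4 the call of C4A ended, at 1.5 to 1.75. C4A and C4B are near-identical, so reads may be shared between them. PAEP, the secreted lipocalin glycodelin, had 24.4, 22.5, 15.9 and 11.5 CPM beside cardiac tissue, 32.8, 17.2, 32.5 and 23.2 CPM beside hepatic tissue and 7.86, 6.89, 0.577 and 4.86 CPM in monoculture. It rose by 2.14 ± 0.54 (SE; adjusted p = 0.0185) and its call ended without monoculture replicate 4, at 2.13.

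The remaining 4 of these genes had low levels. FGG, the fibrinogen gamma chain, reached 1.68 to 7.04 CPM in co-culture, against 0.300 to 1.48 CPM in monoculture, with a pooled log2 fold change of 2.26 ± 0.48 (SE; adjusted p = 0.006). The gel was made of fibrin, but its protein is not measured by RNA. TMEM91, a membrane protein, rose by 1.58 ± 0.21 (SE; adjusted p = 0.000102) to 2.53 to 4.97 CPM, against 0.923 to 1.25 CPM in monoculture. SSPO, a thrombospondin-repeat protein, rose by 1.66 ± 0.30 (SE; adjusted p = 0.00112). The serine protease gene PRSS53 rose by 1.37 ± 0.23 (SE; adjusted p = 0.000663). Outside protein-coding genes, the pseudogene FKBP9P1 rose by 2.51 ± 0.33 (SE; adjusted p = 9.61e-05) and the long noncoding RNA FER1L4 by 1.98 ± 0.33 (SE; adjusted p = 0.0016). FKBP9P1 resembles its parent gene, so reads may be split between them.

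The shared lower genes changed less. ANKRD1, an ankyrin repeat protein and a common target of YAP and TAZ (ANKRD1, ENSG00000148677, chr10:90912096-90921276 on the minus strand), had 25.1, 30.0, 27.0 and 44.3 CPM beside cardiac tissue, 25.1, 44.2, 35.7 and 35.9 CPM beside hepatic tissue and 61.6, 59.2, 95.4 and 87.0 CPM in monoculture. The groups lay well apart, and the pooled log2 fold change was -1.18 ± 0.20 (SE; adjusted p = 0.00239). HSPA8, the constitutive cytosolic chaperone HSC70, had 1528, 1407, 1541 and 1725 CPM beside cardiac tissue, 1147, 1384, 1249 and 1469 CPM beside hepatic tissue and 2103, 1861, 1969 and 1939 CPM in monoculture. It fell by 0.46 ± 0.07 (SE; adjusted p = 0.000309), and cardiac replicate 4 was the co-culture library nearest to monoculture. S100A4, a calcium-binding protein linked to motility, had 162, 146, 144 and 217 CPM beside cardiac tissue, 179.7, 148, 136 and 164 CPM beside hepatic tissue and 250.5, 239, 363 and 266 CPM in monoculture. Its pooled log2 fold change was -0.79 ± 0.13 (SE; adjusted p = 0.00204), with monoculture replicate 3 above the other monoculture libraries.

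BCAS1 fell by 1.66 ± 0.36 (SE; adjusted p = 0.00513), the immunoglobulin-domain gene ILDR2 fell by 1.30 ± 0.22 (SE; adjusted p = 0.000624) and the actin-binding nexilin gene NEXN fell by 1.01 ± 0.17 (SE; adjusted p = 0.000715). PRRG4, a membrane protein with a Gla domain, fell by 1.05 ± 0.24 (SE; adjusted p = 0.00436). AKR1C2 and AKR1C3, aldo-keto reductases that act on steroids, fell by 1.53 ± 0.35 (SE; adjusted p = 0.00767) and by 1.02 ± 0.25 (SE; adjusted p = 0.0166). Their monoculture levels spread widely, with 3.18 to 12.3 CPM for AKR1C2 and 34.3 to 91.4 CPM for AKR1C3, and AKR1C genes are close paralogs whose reads may be split. Without monoculture replicate 3 their values were -1.01 for AKR1C2 and -0.64 for AKR1C3. The call of AKR1C3 ended with the replicate block, at -0.96. Of the genes of highest CPM, the membrane-repair gene MYOF fell by 0.27 ± 0.05 (SE; adjusted p = 0.00194) and the nuclear import receptor gene KPNB1 fell by 0.28 ± 0.07 (SE; adjusted p = 0.00699). HNRNPU, a nuclear matrix RNA-binding protein, fell by 0.20 ± 0.06 (SE; adjusted p = 0.0166) and its call ended without monoculture replicate 4, at -0.19. The noncoding RNAs RNASEH1-AS1 and DUBR fell by 0.62 ± 0.13 (SE; adjusted p = 0.00264) and fell by 0.69 ± 0.16 (SE; adjusted p = 0.00498). RNASEH1-AS1 overlaps a gene on the other strand, and the strand setting of the counting is not given in the sources used here.

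**Figure D3:**
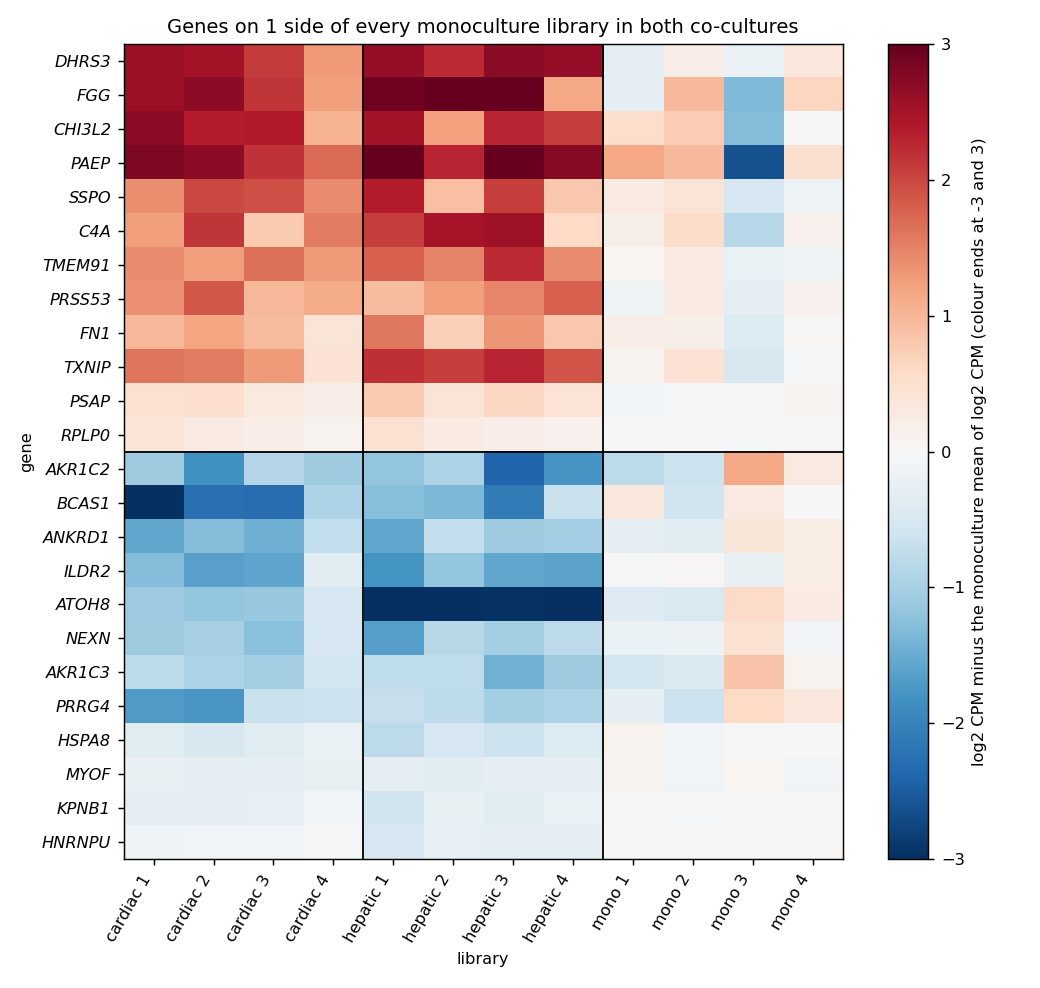
Log2 CPM minus the monoculture mean of log2 CPM (colour, ends at -3 and 3) for 24 named shared genes (rows) in the 12 libraries (columns), cardiac, hepatic and monoculture from left to right. The genes above the line are red in all 8 co-culture libraries and those below it are blue, with paler colours in cardiac replicate 4 for most genes.

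The promoter of FN1 holds the cyclic AMP response element TGACGTCA, and that of ANKRD1 holds GGAATG, the core bound by TEAD factors, at 2 places. Capitals mark these matches. They are shown because FN1 had the highest CPM of the shared higher matrix genes and ANKRD1 is the YAP and TAZ target whose groups did not overlap. Both strands were searched in the same RefSeq window.
FN1, chr2:215436019-215436318, minus strand: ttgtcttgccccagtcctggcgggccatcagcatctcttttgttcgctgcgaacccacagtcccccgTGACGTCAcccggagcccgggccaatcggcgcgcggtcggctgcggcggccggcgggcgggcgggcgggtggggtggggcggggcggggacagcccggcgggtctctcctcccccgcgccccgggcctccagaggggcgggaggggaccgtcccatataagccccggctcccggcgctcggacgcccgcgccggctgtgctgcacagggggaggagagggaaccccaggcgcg
ANKRD1, chr10:90921038-90921337, minus strand: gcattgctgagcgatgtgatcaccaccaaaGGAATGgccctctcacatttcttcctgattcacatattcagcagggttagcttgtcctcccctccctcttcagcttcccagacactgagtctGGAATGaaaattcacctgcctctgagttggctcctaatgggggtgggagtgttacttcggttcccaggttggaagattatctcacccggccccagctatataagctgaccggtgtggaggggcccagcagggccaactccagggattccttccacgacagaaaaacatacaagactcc
TGACGTCA was in 1.98% and GGAATG in 14.0% of the 27305 promoters. TGACGTCA was in 3.37% of the shared higher promoters and in 3.03% of those of tested genes. GGAATG was in 12.1% of the shared lower promoters and in 11.2% of those of tested genes.

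Genes of glucose uptake and glycolysis moved mostly one way. Of 22 members, 18 rose in the pooled comparison and none fell, with a median log2 fold change of 0.66 against 0.01 over all tested genes. The shares over all tested genes were 12.8% higher and 11.8% lower, and 4.53% shared higher. GPI, which converts glucose 6-phosphate to fructose 6-phosphate (GPI, ENSG00000105220, chr19:34359480-34402413 on the plus strand), had 658, 717, 627 and 521 CPM beside cardiac tissue, 644, 550.1, 564 and 544 CPM beside hepatic tissue and 390.3, 517, 318 and 396 CPM in monoculture. Its groups did not overlap, though monoculture replicate 2 came close to cardiac replicate 4, and it rose by 0.57 ± 0.11 (SE; adjusted p = 0.00264). The phosphofructokinase gene PFKL rose by 0.72 ± 0.14 (SE; adjusted p = 0.00399) and PFKP by 0.42 ± 0.09 (SE; adjusted p = 0.0026), and the transporter gene SLC2A3 by 1.45 ± 0.35 (SE; adjusted p = 0.0153). ALDOA was also shared, but it was listed at only 3.06 to 5.72 CPM in co-culture, and how reads that overlap several genes were counted is not given in the sources used here. Only GPI, PFKL and ALDOA met the rule for every library. Without monoculture replicate 2, 20 of the 22 met it, and without cardiac replicate 4, 13 did. The number that rose was 9 without monoculture replicate 1 and 10 without monoculture replicate 4.

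Of 23 hypoxia genes, 13 rose and 1 fell, with a median of 0.76, and none met the rule for every library. Among all tested genes 12.8% rose and 11.8% fell, and 4.53% were shared higher and 4.22% shared lower. VEGFA, the main angiogenic ligand, had 809, 1089.9, 789 and 353 CPM beside cardiac tissue, 895, 497, 738 and 589.7 CPM beside hepatic tissue and 251, 406, 173 and 203 CPM in monoculture. The groups overlapped through cardiac replicate 4, which lay under monoculture replicate 2, and the pooled log2 fold change was 1.48 ± 0.35 (SE; adjusted p = 0.0142). The call of VEGFA ended without monoculture replicate 4, at 1.38. The vasodilator peptide gene ADM rose by 2.16 ± 0.62 (SE; adjusted p = 0.0325) and NDRG1 by 2.01 ± 0.60 (SE; adjusted p = 0.0386). CA9, the tumour-associated carbonic anhydrase, had 2.64 ± 1.03 (SE; adjusted p = 0.0927) and did not pass. ANGPTL4, an inhibitor of lipoprotein lipase, was the member that fell, with 0.19 in the cardiac and -2.21 in the hepatic comparison. Without monoculture replicate 2, 21 hypoxia genes rose and 18 met the rule, and without monoculture replicate 3, 6 rose. Without cardiac replicate 4, 19 rose and 10 met the rule. The number that rose was 4 without monoculture replicate 4, 5 without monoculture replicate 1, 7 without any 1 of cardiac replicates 1 to 3 or hepatic replicate 1, and 8 without hepatic replicate 3.

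Matrix genes held the greatest number of shared members outside the ribosome. Of 28 basement membrane and matrix genes, 15 rose and 2 fell, and 10 lay above and 1 below every monoculture library. Among all tested genes 12.8% rose and 11.8% fell, and 4.53% lay above and 4.22% below. LAMA3, the alpha chain of laminin-332 (LAMA3, ENSG00000053747, chr18:23689443-23956222 on the plus strand), had 102, 109.7, 109 and 93.1 CPM beside cardiac tissue, 154, 127, 160.2 and 120.3 CPM beside hepatic tissue and 69.8, 66.3, 54.7 and 59.0 CPM in monoculture. Its hepatic libraries lay above its cardiac ones and both above monoculture, with a pooled log2 fold change of 0.95 ± 0.09 (SE; adjusted p = 4.59e-06) and a cardiac minus hepatic difference of -0.44 (adjusted p = 0.00949). LAMB1, a laminin beta chain, rose by 0.60 ± 0.07 (SE; adjusted p = 5.76e-05) and also had a cardiac minus hepatic difference, of -0.36 (adjusted p = 0.0128). The shared members further held LAMA5, COL6A2, COL7A1, COL13A1, TNC, TGFBI and AGRN. TGFBI, a collagen-binding matrix protein, had 147, 175, 111 and 60.5 CPM beside cardiac tissue, 113, 57.4, 70.5 and 54.8 CPM beside hepatic tissue and 28.3, 51.0, 22.5 and 29.7 CPM in monoculture. It rose by 1.54 ± 0.36 (SE; adjusted p = 0.0136), with the cardiac libraries spread over the widest range. THBS1, the antiadhesive thrombospondin, was the 1 shared member that fell, with -0.57 ± 0.11 (SE; adjusted p = 0.00206).

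Some of the enzymes that modify and cut the matrix rose too. Of 17 collagen modification genes 7 rose and none fell. The shares over all tested genes were 12.8% higher and 11.8% lower, and 4.53% shared higher. LOXL2, a lysyl oxidase that crosslinks collagen, rose by 0.49 ± 0.07 (SE; adjusted p = 0.000128) without overlap, and LOXL1 rose by 0.69 ± 0.12 (SE; adjusted p = 0.00118) with overlap. PLOD1, SERPINH1 and P3H1 were the other shared members, and 8 were shared without monoculture replicate 2. Of 20 proteolysis genes 10 rose and 1 fell. The membrane protease gene MMP14 rose by 0.82 ± 0.12 (SE; adjusted p = 0.000381) and the urokinase receptor gene PLAUR by 0.46 ± 0.07 (SE; adjusted p = 0.000295), and TIMP1, TIMP2, CTSB and ADAM8 were shared too. MMP1, the interstitial collagenase, had 170.1, 147, 147 and 21.4 CPM beside cardiac tissue, 74.2, 41.6, 79.3 and 90.3 CPM beside hepatic tissue and 39.6, 44.8, 9.19 and 26.8 CPM in monoculture. The groups overlapped through cardiac replicate 4 and hepatic replicate 2, and its value of 1.63 ± 0.59 (SE; adjusted p = 0.0757) did not pass. Without cardiac replicate 4 it did, at 1.80.

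The NF-kB and inflammation list had 12 of 24 members higher and 2 lower. Among all tested genes 12.8% were higher and 11.8% lower, and 4.53% were shared higher. NFKBIZ, TNFAIP2, TRAF1 and ICAM1 were shared, among them TNFAIP2 with 203, 222, 216 and 181 CPM beside cardiac tissue, 178, 144, 192 and 199 CPM beside hepatic tissue and 136, 130.1, 121 and 131 CPM in monoculture. It rose by 0.56 ± 0.08 (SE; adjusted p = 0.000131). ICAM1, the adhesion receptor for leukocyte integrins, rose by 0.94 ± 0.16 (SE; adjusted p = 0.00177) and the cytokine gene IL1B by 1.11 ± 0.21 (SE; adjusted p = 0.00157). CXCL8, the neutrophil chemokine, rose by 1.03 ± 0.33 (SE; adjusted p = 0.0456) and lost its call without 10 of the 12 libraries in turn, at 0.93 to 1.08. IL6 stood at 0.42 ± 0.16 (SE; adjusted p = 0.069), not past the threshold, and passed without cardiac replicate 4, at 0.51. BIRC3, an inhibitor of apoptosis, passed in the pooled comparison through the hepatic co-culture, with -0.03 in the cardiac and -1.49 in the hepatic comparison. The inflammation list had 8 shared members without cardiac replicate 4 and 7 without hepatic replicate 2. Of 27 immediate early genes, 11 rose and 3 fell. IER3, a survival gene of the stress response, was shared and rose by 0.72 ± 0.09 (SE; adjusted p = 5.60e-05), and DUSP5, a phosphatase of ERK, rose by 0.38 ± 0.06 (SE; adjusted p = 0.000432) with overlap.

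Among the ribosomal proteins 32 of 39 rose and none fell, with a median of 0.25, and 11 met the rule for every library. The shares over all tested genes were 12.8% higher and 11.8% lower, and 4.53% shared higher. In the cardiac comparison 5 of the 39 rose and in the hepatic one 33, with none lower in either and medians of 0.19 and 0.34. Over all tested genes 4.93% rose in the cardiac and 14.4% in the hepatic comparison. None of the 39 was called between the co-cultures. RPS4X had 989, 954, 880.3 and 815 CPM beside cardiac tissue, 1276, 1015, 1054 and 989 CPM beside hepatic tissue and 751, 787, 701 and 748 CPM in monoculture. It rose by 0.41 ± 0.07 (SE; adjusted p = 0.000971), and RPS3 by 0.33 ± 0.06 (SE; adjusted p = 0.00129). Without cardiac replicate 4, 32 members met the rule, and without monoculture replicate 3, 15 rose. Without monoculture replicate 1 or 4, 20 rose. Under library totals alone 23 rose. Ribosomal protein genes have many processed pseudogenes, so their counts are uncertain. Of 13 nuclear-retained and intron-rich transcripts 7 rose and none fell. In the same libraries the summed level of these nuclear-retained and intron-rich transcripts, read as a sign of RNA composition, was 2009 to 2408 CPM in the cardiac co-culture, 2279.9 to 2721 CPM in the hepatic co-culture and 1825 to 2084 CPM in monoculture (two-sided exact permutation p = 0.00808 over 8 and 4 libraries, adjusted p = 0.0189). The adjusted p was 0.0566 without monoculture replicate 1, 3 or 4. Its part in these results was not tested.

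The heat shock list moved the other way, with 11 of 18 members lower and 1 higher and a median of -0.28. The shares over all tested genes were 11.8% lower and 12.8% higher, and 4.22% shared lower. HSPA4, HSPA8, HSPA9, HSPE1, DNAJA1 and CHORDC1 were below every monoculture library. HSPA4, a nucleotide exchange factor for HSP70, fell by 0.38 ± 0.07 (SE; adjusted p = 0.00153). HSPH1, of the same family, fell by 0.36 ± 0.06 (SE; adjusted p = 0.000764) but was not shared, and had a cardiac minus hepatic difference of -0.34 (adjusted p = 0.00808). HSPB1 was the member that rose. Of 22 NRF2 targets 7 fell and 3 rose, and 4 were shared, all of them lower. Without monoculture replicate 2, 7 were shared, and without cardiac replicate 4, 6 lower and 2 higher ones were. GCLM, the regulatory subunit of glutathione synthesis, fell by 0.52 ± 0.07 (SE; adjusted p = 0.000163). GCLC, its catalytic subunit, had 55.2, 53.0, 51.2 and 49.8 CPM beside cardiac tissue, 30.2, 34.2, 34.7 and 37.5 CPM beside hepatic tissue and 55.9, 56.0, 63.3 and 55.8 CPM in monoculture. Its cardiac libraries lay just under monoculture, the hepatic ones far under it, and the difference between co-cultures was 0.61 (adjusted p = 5.86e-05). The peroxiredoxin gene PRDX1 fell by 0.36 ± 0.07 (SE; adjusted p = 0.00118). Of 21 YAP and TAZ targets 7 fell and 1 rose, with ANKRD1 the shared member, near the 4.22% of all tested genes. Without monoculture replicate 3 or 4, 3 fell, and 3 met the rule without monoculture replicate 2. AMOTL2, another target, fell by 0.70 ± 0.12 (SE; adjusted p = 0.00161) with overlap.

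The number of cell cycle genes called depended on single libraries. Of 24 G1/S and replication genes 8 fell and none rose, with a median of -0.49 and none in the shared set. Among all tested genes 11.8% fell and 12.8% rose, and 4.22% were shared lower. In the cardiac comparison none of the 24 fell and in the hepatic one 8 did, with none higher in either and medians of -0.46 and -0.53. Over all tested genes 3.33% fell in the cardiac and 13.6% in the hepatic comparison. None of the 24 was called between the co-cultures. CDC6, a loader of the replicative helicase, had 26.8, 23.6, 32.0 and 50.7 CPM beside cardiac tissue, 21.0, 35.9, 22.8 and 33.7 CPM beside hepatic tissue and 50.1, 49.9, 55.4 and 50.3 CPM in monoculture. Cardiac replicate 4 lay inside the monoculture range, and the pooled log2 fold change was -0.74 ± 0.20 (SE; adjusted p = 0.0244). CCNE2, a cyclin of G1/S, fell by 0.70 ± 0.20 (SE; adjusted p = 0.0176), and CCNA2, the cyclin of S phase and G2, fell by 0.54 ± 0.17 (SE; adjusted p = 0.0426). The calls ended for CDC6 without monoculture replicate 1, 3 or 4 (-0.76 to -0.70), for CCNE2 without monoculture replicate 1 or 4 (-0.63 to -0.53) and for CCNA2 without any of 8 libraries (-0.56 to -0.48). Without cardiac replicate 4, 23 of the 24 G1/S genes fell and 16 met the rule, and 17 of the 23 G2/M genes fell, against 1 of 23 with it. Of the 24, none fell without monoculture replicate 1 or 4, 1 fell without monoculture replicate 3, 4 without monoculture replicate 2 and 2 without cardiac replicate 1 or 3 or hepatic replicate 1 or 3. MKI67, the proliferation marker, was not past the threshold, at -0.51 ± 0.24 (SE; adjusted p = 0.159), and was without cardiac replicate 4, at -0.68.

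**Figure D4:**
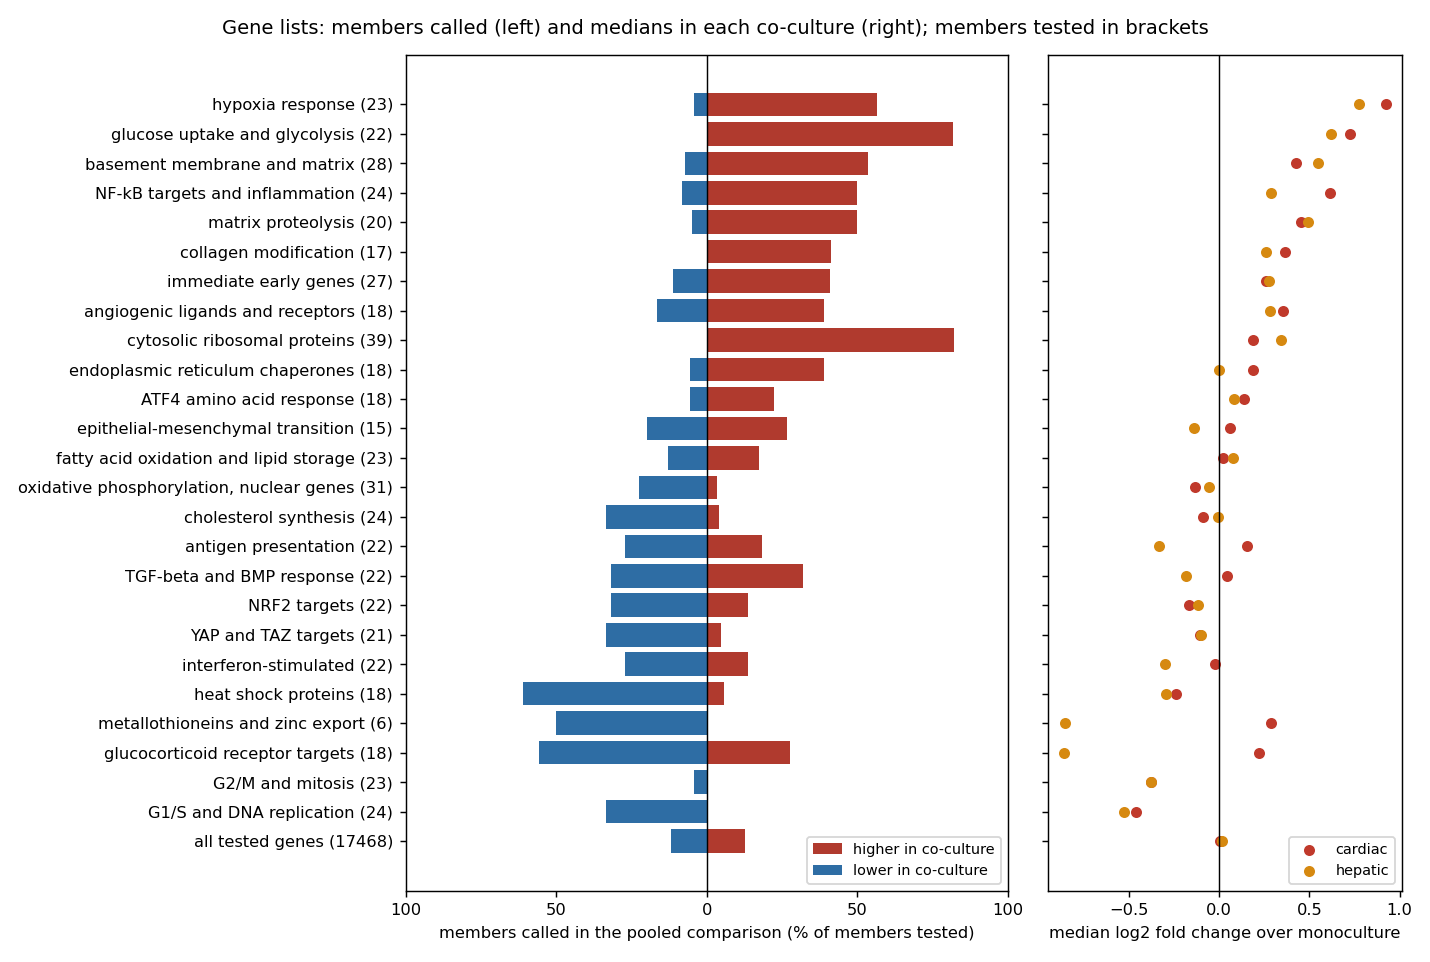
Left, members of each gene list called higher (red, to the right) and lower (blue, to the left) in the pooled comparison, as a percentage of members tested (number in brackets). Right, the median log2 fold change of the list in the cardiac and hepatic co-cultures over the same monoculture libraries. Glycolysis and ribosomal proteins are nearly all red, heat shock proteins mostly blue, and the medians of metallothioneins and glucocorticoid receptor targets lie on opposite sides of 0.

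Other lists had few calls or calls in both directions, some of them mostly in 1 direction. Over all tested genes 12.8% were called higher and 11.8% lower, with 4.53% shared higher and 4.22% shared lower. Of 22 antigen presentation genes 4 rose and 6 fell, with HLA-E among the shared members. In the cardiac comparison 4 of the 22 rose and none fell, and in the hepatic one 2 rose and 11 fell. Over all tested genes 4.93% rose and 3.33% fell in the cardiac comparison, and 14.4% and 13.6% in the hepatic one. Of the 22, 11 differed between the co-cultures, against 6.18% of all tested genes. HLA-E, a nonclassical class I molecule, rose by 0.42 ± 0.07 (SE; adjusted p = 0.000348), and HLA-DMB, of class II loading, passed through the hepatic co-culture alone, with 0.01 in the cardiac and -1.67 in the hepatic comparison. Of 22 interferon-stimulated genes 3 rose and 6 fell, among them IFI44, which fell by 0.69 ± 0.14 (SE; adjusted p = 0.00303) in the shared set. Of 31 nuclear oxidative phosphorylation genes 7 fell and 1 rose. NDUFS1, a complex I subunit, fell by 0.25 ± 0.06 (SE; adjusted p = 0.00479). Of 24 cholesterol synthesis genes 8 fell and 1 rose, with CYP51A1 and ACAT2 shared. Of 22 TGF-beta and BMP response genes 7 rose and 7 fell. Of 15 epithelial-mesenchymal genes 4 rose and 3 fell, and VIM, the mesenchymal filament, rose by 0.47 ± 0.11 (SE; adjusted p = 0.00775) with overlap. Of 18 ER chaperones 7 rose and 1 fell, and of 18 ATF4 targets 4 rose and 1 fell. Of 23 fatty acid oxidation and lipid storage genes 4 rose and 3 fell, near the shares over all tested genes, and of 13 mitochondrial mRNAs 3 fell and none rose. HSP90B1 of the chaperone list rose by 0.34 ± 0.08 (SE; adjusted p = 0.00482) and DDIT3 of the ATF4 list by 0.86 ± 0.17 (SE; adjusted p = 0.00219). Single libraries moved these counts. Without monoculture replicate 3 there were 6 calls instead of 10 for antigen presentation, 3 instead of 9 for interferon-stimulated genes, 5 instead of 8 for oxidative phosphorylation, 3 instead of 9 for cholesterol synthesis, 8 instead of 14 for TGF-beta and BMP response, 4 instead of 8 for ER chaperones, 3 instead of 5 for ATF4 targets and 0 instead of 3 for mitochondrial mRNAs. Interferon-stimulated genes had 14 calls, oxidative phosphorylation 12 and ATF4 targets 8 without cardiac replicate 4. Monoculture replicate 4 and, for some lists, monoculture replicate 1, cardiac replicates 1 to 3 or hepatic replicate 1 or 3 also moved a count by over 1.5 times when left out.

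A pooled call was not always a shared one. Of 18 glucocorticoid receptor targets 10 fell and 5 rose, and 10 differed between the co-cultures. Among all tested genes 11.8% fell, 12.8% rose and 6.18% differed between the co-cultures. FKBP5, a cochaperone of the receptor, had 241, 227, 225 and 288 CPM beside cardiac tissue, 39.2, 54.6, 41.1 and 47.9 CPM beside hepatic tissue and 263, 262, 346 and 331 CPM in monoculture. The hepatic libraries were far below the others while the cardiac ones overlapped monoculture, with -0.29 in the cardiac and -2.71 in the hepatic comparison. MT1E, a metallothionein, went opposite ways in the co-cultures, with 0.31 in the cardiac and -1.49 in the hepatic comparison, and its paralogs make its counts uncertain. Of 6 metallothionein and zinc export genes 3 fell and none rose in the pooled comparison, and the exporter gene SLC30A1, which was shared, fell by 0.42 ± 0.08 (SE; adjusted p = 0.00126). The single comparisons share the monoculture libraries, so the overlap of their calls is not itself a result. Over all genes, 1081 were called in both single comparisons in the same direction and 13 in opposite directions. Of these, IP6K3 had 1.07 in the cardiac and -1.57 in the hepatic comparison, DAAM2 0.94 in the cardiac and -2.09 in the hepatic comparison and LDB3 0.70 in the cardiac and -1.27 in the hepatic comparison.

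The shared genes themselves could differ in size between the co-cultures. Cardiac against hepatic co-culture had 1080 calls (6.18%) over all genes, 572 higher (3.27%) and 508 lower (2.91%) in the cardiac co-culture, and 112 of the 1528 shared genes (7.33%) were among them, a share near that background. In 70 of the 71 shared higher genes and 40 of the 41 shared lower genes with a difference, the hepatic co-culture lay farther from monoculture. This is a description only, since the rule used the same values. Of all 17468 tested genes, called or not, 11179 had the larger effect in the hepatic co-culture. ATOH8, a transcription factor induced by BMP signals, had 21.7, 20.6, 20.9 and 32.8 CPM beside cardiac tissue, 5.05, 5.17, 5.89 and 5.17 CPM beside hepatic tissue and 35.4, 33.7, 68.7 and 55.0 CPM in monoculture. Its hepatic libraries were narrowly grouped far below the others, cardiac replicate 4 came close to monoculture, and the cardiac minus hepatic difference was 2.18 (adjusted p = 0.000293). SLC26A2, a sulfate transporter, differed by 1.12 (adjusted p = 1.71e-07), SYBU, a kinesin adaptor, by 0.84 (adjusted p = 0.00749) and INHBB, an activin subunit, by 0.80 (adjusted p = 0.00188). Of the shared higher genes, TP63, an epithelial transcription factor, had 3.85, 4.68, 4.12 and 2.84 CPM beside cardiac tissue, 10.6, 12.0, 9.52 and 12.0 CPM beside hepatic tissue and 1.80, 2.37, 1.20 and 2.44 CPM in monoculture. Its difference was -1.51 (adjusted p = 9.56e-05). ITGB3, the integrin beta 3 subunit, differed by -1.5 (adjusted p = 0.0133), B4GALNT3, a glycosyltransferase, by -1.04 (adjusted p = 0.000642) and IFITM1, an interferon-induced membrane protein, by -0.93 (adjusted p = 0.0324).

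Several defining markers of other cell types were at or near 0. Counts of single markers here and below are not scaled to the library totals, which differed, so they are not compared as levels. The hepatocyte marker ALB had 0 to 4 counts in the cardiac, 0 to 6 in the hepatic and 0 to 14 in the monoculture libraries, and MYH6, a cardiac myosin, had up to 21 counts in the cardiac libraries and none elsewhere. Other genes of these lists had counts in every condition, as HP, the haemoglobin-binding haptoglobin, with 795 to 1022 in the cardiac, 108 to 478 in the hepatic and 674 to 1420.0 in the monoculture libraries. Of 4 hepatocyte markers tested, FGG and FOXA2, a transcription factor of the foregut lineage, rose, FOXA2 by 0.46 ± 0.07 (SE; adjusted p = 0.000227). HP, at -0.85 in the pooled comparison (adjusted p = 0.0569), did not pass, with 0.26 in the cardiac and -1.97 in the hepatic comparison, where it fell, and 3 of the 4 differed between the co-cultures. Over all tested genes 12.8% rose and 11.8% fell in the pooled comparison, and 6.18% differed between the co-cultures. Summed over 21 genes, these markers were at 174 to 224 CPM in the cardiac co-culture, 141 to 192 CPM in the hepatic co-culture and 127 to 168 CPM in monoculture (exact permutation p = 0.0848, adjusted p = 0.148, and 0.0318 without hepatic replicate 4). The cardiomyocyte sum of 23 genes, mostly TTN, was at 21.3 to 23.8, 22.0 to 23.7 and 17.9 to 21.0 CPM in the same order (exact permutation p = 0.00404, adjusted p = 0.0141). TTN rose by 0.32 ± 0.10 (SE; adjusted p = 0.0226) and lost its call without monoculture replicate 3 or 4, at 0.23 and 0.30. The fibroblast sum of 18 genes, mostly COL6A3 and FBLN5, was at 52.9 to 68.5 CPM in the cardiac co-culture, 35.2 to 61.1 CPM in the hepatic co-culture and 49.4 to 56.1 CPM in monoculture (exact permutation p = 0.853). Of 10 members tested, 1 rose and 2 fell in the pooled comparison, and 2 rose and 2 fell in the hepatic one. These numbers were near the shares over all tested genes. Those were 12.8% higher and 11.8% lower in the pooled comparison and 14.4% and 13.6% in the hepatic one. FBLN1 had a pooled log2 fold change of -1.73, with 82 to 226 counts in the cardiac, 19 to 42 in the hepatic and 197 to 321 in the monoculture libraries. DCN had -1.70, with 50 to 71, 4 to 18 and 33 to 124 counts in the same order. Neither was shared, and the cardiac minus hepatic difference was 2.19 for FBLN1 and 2.80 for DCN. COL1A2 had 37 to 84, 53 to 276 and 25 to 77 counts in the same order. Fibroblasts are named only for the neighbouring tissues, which monoculture lacked, yet FBLN1, DCN and COL1A2 had counts in monoculture too. Which cells these counts came from was not tested. In bulk RNA, a change in the number of cells of a type and in RNA per cell cannot be told apart.

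Of 8 endothelial markers tested 5 rose and 1 fell, and the sum over 12 was 142 to 161 CPM in the cardiac co-culture, 164 to 185 CPM in the hepatic co-culture and 123 to 133 CPM in monoculture (exact permutation p = 0.00404, adjusted p = 0.0141, the smallest p that 8 against 4 libraries allow). The defining markers ERG and CDH5 were at 0 and at 0 to 5 counts. Most counts of the sum were of ESAM, EGFL7, ROBO4 and PECAM1, which had counts in every condition. ESAM had 1773 to 2497 unscaled counts in the cardiac, 2083 to 3448 in the hepatic and 2220 to 2806 in the monoculture libraries. The receptor gene KDR had 47 to 112 counts in the cardiac, 28 to 68 in the hepatic and 80 to 174 in the monoculture libraries. TIE1, an endothelial receptor, was shared, at 1.71 to 3.97 CPM in co-culture, against 0.0692 to 0.528 CPM in monoculture, and rose by 2.75 ± 0.35 (SE; adjusted p = 6.69e-05). Of 18 angiogenic ligands and receptors 7 rose and 3 fell, with NRP1, TIE1, NOTCH1 and NOTCH3 shared, and 7 were shared without cardiac replicate 4 or without monoculture replicate 2. The shares over all tested genes were 12.8% higher and 11.8% lower, and 4.53% shared higher. NOTCH3 rose by 1.02 ± 0.18 (SE; adjusted p = 0.000958) and PGF, a VEGF family ligand, by 1.06 ± 0.25 (SE; adjusted p = 0.0117). The part of other cell types in these results was not tested. Markers of the MDA-MB-231 line summed to 5374 to 5697 CPM in the cardiac co-culture, 5889 to 6177 CPM in the hepatic co-culture and 5397 to 5845 CPM in monoculture, with EGFR, CAV1 and S100A4 shared lower and TGFBI shared higher.

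A property that the rule did not use differed with the direction. The median GC content of the longest transcript was 56.6% for the shared higher genes, 43.1% for the shared lower genes and 48.3% for all tested genes. Shared lower genes were more often protein-coding (97.7%) than shared higher genes (87.4%), against 78.5% of those tested. These sets also differed in level, with a median mean logCPM of 5.78, 4.71 and 4.01 in the same order. The count-weighted GC content per library was 48.8 to 49.2% in the cardiac co-culture, 48.7 to 49.3% in the hepatic co-culture and 48.7 to 48.9% in monoculture, so the groups overlapped in this mean. Among genes near 66.2% GC, the median deviation from the gene mean was -0.020 to 0.257 log2 in the co-culture libraries. In the monoculture libraries it was -0.102 to -0.024, without overlap. The groups did not overlap near 61.3% GC either, but did near 63.3% and, at the low end, near 35.1%. When a GC-dependent offset for each library was added, an alternative chosen after seeing the data, the shared set held 1414 genes, 1015 of them in the reported set, and the pooled test made 4387 calls. Whether the GC content or the neighbouring tissue sets the direction was not tested.

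**Figure D5:**
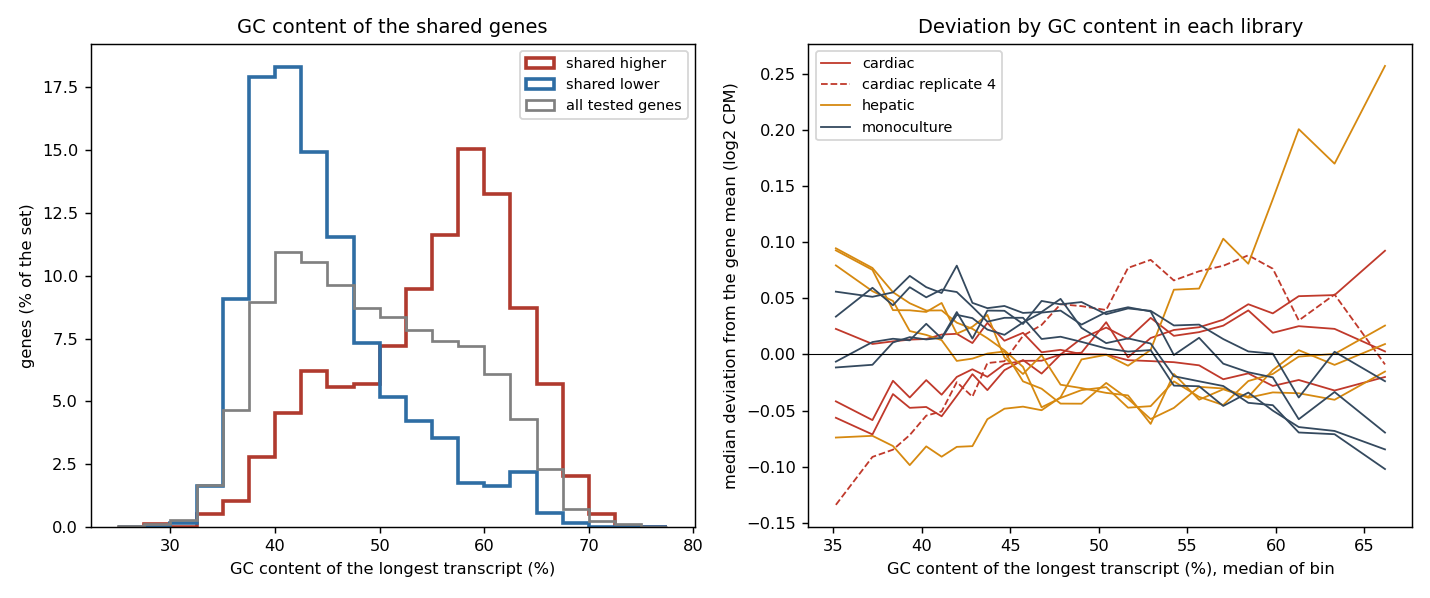
Left, the GC content of the longest transcript (x, %) of shared higher, shared lower and all tested genes (y, percentage of the set). Right, the median deviation from each gene's mean in log2 CPM (y) by GC content (x) in each library, with cardiac replicate 4 dashed. The shared higher genes lie to the right of all tested genes and the shared lower genes to the left (medians 56.6%, 43.1% and 48.3% for higher, lower and all), and the library curves spread at both ends.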

How the data were processed

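RNA of the cancer tissue was sequenced in 12 libraries of 3 conditions. The authors deposited raw counts of reads per Ensembl gene, not normalized. Reads were handled with HISAT2 2.2.1 on GRCh38, featureCounts 2.0.6 and also DESeq2 1.42.0, going by the submitters' processing notes, which state no order. Annotation release, strand setting and the treatment of multimapping reads are not stated in these notes or in the labels. Both a stranded and an unstranded preparation appear in the labels' protocols, so genes that overlap on either strand may share reads. All 58735 identifiers matched GENCODE release 29.

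Counts were filtered with filterByExpr (17468 genes kept, holding 99.9% of counts), TMM-scaled and tested with edgeR 4.0.16 (R 4.3.3) by the robust quasi-likelihood test in 1 fit of 3 groups, two-sided, with Benjamini-Hochberg adjustment at 0.05. The common biological coefficient of variation was 14.9%. On simulated data of the pooled comparison over 17468 genes, the share of changes recovered was 55.2% at 1.5-fold, 77.6% at 2-fold and 86.4% at 4-fold, and 13 of 159 calls were false (8.18%). The simulation changed 67, 67 and 66 genes at these folds, alike in both co-cultures and with no library set apart. Its shares need not hold for the data, where far more genes were called. Marker sums were compared by exact permutation tests with scipy 1.17.1 and adjusted over the 7 sums.

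Genes were named by a rule: among protein-coding shared genes with mean logCPM above 1 that passed the pooled test, the 8 with the largest smaller effect in each direction and the 4 of highest level, then 2 noncoding genes in each direction, the 2 members of smallest adjusted p of each gene list, 8 genes of the study's question, the 4 most different between co-cultures in each direction and 3 called in opposite directions. Other genes named as list members met the rule for every library or were chosen after their values were seen. Members, lists and tests were chosen with earlier results of these data known. Alternatives were other scalings, filters, blocks, DESeq2 1.42.0, a minimum fold of 1.5, a fit of 2 groups and each library left out. A few genes counted in the lists are not reported here by name.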

Additional observations from a re-analysis of the deposited data

Results flagged for a closer look

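In 19 of 336 groups of 4 libraries examined, 1 library lay far from the other 3, where chance gives about 1 in 20, or 16.8. The value in brackets is the gap to the nearest library as a share of the whole range. These were ILDR2 in cardiac replicate 4 (0.834), ATOH8 in cardiac replicate 4 (0.909), ATOH8 in hepatic replicate 3 (0.85), NEXN in monoculture replicate 3 (0.857), HNRNPU in hepatic replicate 1 (0.888), HNRNPU in monoculture replicate 4 (0.945), FKBP9P1 in monoculture replicate 3 (0.854), TRIB3 in monoculture replicate 2 (0.89), CCNE2 in hepatic replicate 3 (0.836), CDC6 in monoculture replicate 3 (0.93). The others were NDUFS1 in hepatic replicate 1 (0.895), GCLC in monoculture replicate 3 (0.978), TFCP2L1 in cardiac replicate 4 (0.888), MMP1 in cardiac replicate 4 (0.843), CXCL8 in monoculture replicate 3 (0.846), SLC26A2 in hepatic replicate 2 (0.849), ITGB3 in hepatic replicate 4 (0.886), the count-weighted GC content in hepatic replicate 1 (0.906) and the fibroblast marker sum in cardiac replicate 4 (0.875). Those of ILDR2, ATOH8, TFCP2L1, MMP1 and the fibroblast sum concerned cardiac replicate 4, the library that also stood apart in the principal components.

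The effect over monoculture differed between the co-cultures for 35 of the 101 named genes, by edgeR's test of the cardiac minus hepatic log2 fold change, and 33 of these are given. Over all tested genes the share was 6.18%, and 8 of the named genes were chosen for such a difference and 3 for opposite directions. The difference was above 0 for DAAM2 3.03, DCN 2.80, IP6K3 2.64, FKBP5 2.42, ANGPTL4 2.39, FBLN1 2.19, ATOH8 2.18, LDB3 1.97, MT1E 1.80, HLA-DMB 1.68, TFCP2L1 1.67, BIRC3 1.46, SLC26A2 1.12, EFNB2 1.08, SNAI2 1.00, SYBU 0.84, INHBB 0.80, AREG 0.72, GCLC 0.61, CPT1A 0.54 and HNRNPU 0.24. It was below 0 for TP63 -1.51, ITGB3 -1.5, NDUFV2 -1.11, ANKRD36C -1.10, B4GALNT3 -1.04, IFITM1 -0.93, IER3 -0.65, FOXA2 -0.46, LAMA3 -0.44, DUSP5 -0.42, LAMB1 -0.36 and HSPH1 -0.34. NDUFV2 averaged 2.26 CPM in co-culture and 0.954 CPM in monoculture, and how reads that overlap several genes were counted is not given in the sources used here. All of these share the monoculture libraries, and their causes were not tested.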

How the results depend on the processing

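The pooled comparison made 4290 calls, and the cause of the differences below was not tested. It made 1869 with a block on the number in the library name, 55 with a minimum change of 1.5-fold and 1081 when both single comparisons had to pass. It made 3122 with 2 groups and 4915 with DESeq2. Leaving out 1 library gave 2612 (without monoculture replicate 3) to 5537 (without cardiac replicate 4), 3660 to 5529 for the hepatic comparison, and 263 (without cardiac replicate 2) to 3378 (without cardiac replicate 4) for the cardiac one. The cardiac comparison had 2219 calls with no low-count filter, 2275 with DESeq2 and 0 with the block on the library-name number in edgeR (2032 at an unadjusted p under 0.05, residual degrees of freedom 4). Cardiac replicates 1 and 3 had library-name numbers, 1 and 5, that no other library had. With the block on that number the cardiac values therefore rested on cardiac replicates 2 and 4. Cardiac against hepatic co-culture had 276 with that block and 676 to 1269 without 1 library. The shared set held 1564 to 3099 genes without 1 library.

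The share of shared genes that were higher was 51.8%, 63.0% under upper-quartile scaling and 39.3% under library totals; for the cardiac calls it was 59.7%, 72.2% under upper-quartile scaling and 48.6% under library totals, and for the hepatic calls 51.5% and 40.1% under library totals. Replicate numbers did not pair the libraries (correlations of same-numbered libraries -0.08 to 0.11). With the replicate block the pooled comparison had 4078 calls, 3890 of them shared with the reported fit, the cardiac one 1310.0, the hepatic one 4660 and cardiac against hepatic 891. Of 93 named pooled calls, 91 were kept with that block, 83 without each library in turn and 92 with GC offsets, 77 with the block on the library-name number and 75 with 2 groups, and 80 were lost with the minimum change. Marker sum differences changed sign for mitochondrial mRNA without cardiac replicate 2 (55.3 CPM) and without monoculture replicate 3 (241 CPM; -1808 CPM at the lowest, without hepatic replicate 1), for fibroblast markers without hepatic replicate 2 (0.783 CPM) and hepatic replicate 4 (1.09 CPM; -3.67 CPM at the lowest, without cardiac replicate 4), and for the MDA-MB-231 markers under library totals (-37.5 CPM). None of these sums differed in the test. What depth limits was not tested.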
